A study of Homo sapiens with 14 samples.

Results

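The comparison was between HEK293T cells given miR-34a-RS and HEK293T cells given a control siRNA. HEK293T is an established cell line from human embryonic kidney, into which the large T antigen of SV40 was introduced. miR-34a-RS is a duplex of the microRNA miR-34a in which residues 13 and 14 of the guide strand were rSpacer residues, which keep the sugar-phosphate backbone but carry no base. The members were the 4 libraries titled miR-34a-RS (replicates 1, 2, 3 and 5) and the 5 libraries titled AllStars (replicates 1 to 5), a commercial negative control siRNA, which made 9 of the 14 libraries of the series. The other 5 libraries came from cells given miR-34a-WT, the same duplex with every guide base in place, and their values are set beside those of miR-34a-RS. All cells were collected 24 h after transfection, and every group was of the same line, with no further genetic change named. Nothing in the labels says that replicates came from separate cultures. The p-values therefore refer to variation among these libraries only, and that variation may be technical.

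MicroRNAs are loaded into Argonaute proteins and pair with messenger RNAs, mostly through guide positions 2 to 8, the seed. A match in the 3′ untranslated region (3′UTR) leads to shortening of the poly(A) tail, decay of the transcript and lower translation. Pairing further along the guide, from about position 13, can add to the seed and is called supplementary pairing, and the abasic residues of miR-34a-RS lie there. The gene of miR-34a is a target of p53, and the microRNA is known for lowering G1 cyclins and kinases, MET, NOTCH receptors and SIRT1. With its relatives of the miR-449 group it also takes part in the formation of multiciliated cells, where it acts on CCP110 and on the Notch pathway.

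The guide is shown first, since its seed and its abasic positions define the comparison. It is printed as miR-34a-5p from RefSeq, with the seed and positions 13 and 14 in capitals, and lies on the minus strand at chr1:9151735-9151756 (GRCh38.p14).
miR-34a-5p: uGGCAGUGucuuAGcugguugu

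A target that pairs with the whole seed and has an A opposite position 1 holds CACTGCCA, an 8mer. CACTGCC is a 7mer-m8, ACTGCCA a 7mer-A1 and ACTGCC a 6mer. Sites were searched in the longest 3′UTR of each gene in GENCODE 29 (GRCh38), which need not be the one that HEK293T cells use. The sites below belong to genes described in what follows, read 5′ to 3′ on the strand of the gene, with the match in capitals. They lie, in order, at chr11:119662554-119662581 (minus), chr6:30069550-30069577 (plus), chrX:71060170-71060197 (minus), chrX:135021698-135021725 (minus), chr7:92605952-92605979 (minus) and chr10:67917463-67917490 (plus), all in 3′UTR exons.
NECTIN1, 8mer: cctgcatctcctttatcctgCACTGCCA
PPP1R11, 8mer: cagtgtcttccttttgttctCACTGCCA
SNX12, 8mer: gaggggtgggggcaactcacCACTGCCA
RTL8B, 8mer: tgcccacagacctgcgctgcCACTGCCA
CDK6, 7mer-m8: caagaagcagtgtggaaattCACTGCCt
SIRT1, 7mer-A1: gatcttttccacaagtattaaACTGCCA

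Sites with AGCT, the complement of guide positions 13 to 16, within 15 bases upstream of the seed match are shown because 2 of those 4 guide bases were missing in miR-34a-RS. They lie at chr6:30069649-30069676 (plus), chr3:13317547-13317574 (minus), chr9:128809923-128809950 (plus) and chr20:36592019-36592046 (plus), again in 3′UTR exons, and AGCT is also in capitals.
PPP1R11, 8mer: ttttcaacagtcccAGCTttCACTGCCA
NUP210, 7mer-m8: ccccggccccaggccAGCTtCACTGCCg
TBC1D13, 7mer-m8: accccttcataAGCTtgggcCACTGCCt
TGIF2, 8mer: gtgAGCTgggaaggacccacCACTGCCA

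The table held read counts for 63140 genes, of which 18321 had enough reads to be tested. Library totals were 22242203 to 34883809 counts for the control and 29961305 to 36255297 for miR-34a-RS. Mitochondrial transcripts took 2.19% of counts in miR-34a-RS replicate 2 and 2.75 to 3.10% in the other 8 libraries. Levels are given in counts-per-million (CPM, scaled by TMM library factors), and changes as log2 fold changes with their standard error (SE). Among 9 markers typical of this line, 4 fell (44.4%, beside 18.4% of all tested genes), the neurofilament genes NEFL (-0.52), NEFM (-0.40) and INA (-0.64) among them. KRT8 (keratin 8, overlapping KRT18) rose by 0.43. The summed level of the 9 was 469 to 497 CPM in the control and 405 to 436 CPM in miR-34a-RS. Fibroblast markers passed the filter for 6 of 12 genes, of which 3 fell, with a summed list level of 50.3 to 63.3 CPM in the control and 48.1 to 54.0 CPM in miR-34a-RS, and COL1A2 and FAP had no count in these libraries. Blood cell markers passed the filter for 2 of 10, and neither passed the edgeR test (1 had an unadjusted p under 0.05, and DESeq2 called 0), while HBA2 and PPBP had no count. Whether the shifts in markers had a part in other results was not tested.

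One library stood apart. In control replicate 5, 14 genes were at 2 CPM or more and at least 3 times the highest of the other 8 libraries, and no gene met this rule in any of those 8. RMRP, the RNA of RNase MRP, was at 119 CPM there and at 0.178 to 1.78 CPM elsewhere. The others were SNORD3A, RN7SL1, RN7SL3, MT-RNR1 and 9 histone genes, mostly transcripts without a poly(A) tail. None of the 14 passed the edgeR test (2 had an unadjusted p under 0.05, and DESeq2 called 0), and RMRP had a log2 change of -4.72 with an edgeR adjusted p of 0.0846. The 25 tested replication-dependent histone genes had a median log2 change of -0.29, with 6 higher and 0 lower by edgeR (0 lower at an unadjusted p under 0.05 and 0 by DESeq2). Without control replicate 5, the median was +0.34, with 9 of 24 higher and 0 lower. Their summed level was 72.7 to 75.0 CPM in control replicates 1 to 4, 164 CPM in control replicate 5 and 90.1 to 106 CPM in miR-34a-RS. Leaving this library out kept 5743 of the 6346 genes called below, lost 603 and added 276.

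miR-34a-RS changed 6346 of the 18321 tested genes (34.6%) at an adjusted p under 0.05 (edgeR quasi-likelihood test, Benjamini-Hochberg over all tested genes). Of these, 3378 were lower (18.4% of tested genes) and 2968 were higher (16.2%). Falls outnumbered rises in the middle of the range: 1144 genes (6.24%) fell by 0.5 or more on the log2 scale and 605 (3.30%) rose by as much. Beyond 1.5 the order turned, with 31 genes lower and 46 higher, and beyond 2 there were 4 lower and 19 higher. The 9 libraries did not overlap between the groups for 4947 genes (27.0%). The plot of all tested genes shows this spread against expression level.

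**Figure D1:**
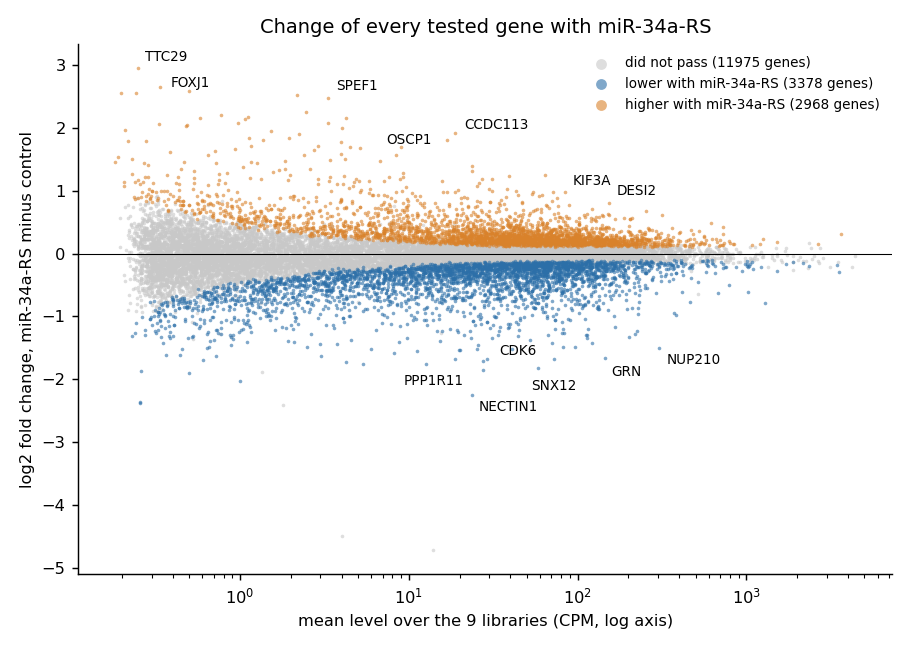
Log2 fold change of each tested gene, miR-34a-RS minus control, against its mean level over the 9 libraries in CPM on a log axis, 1 point per gene. Blue points (3378) are lower and orange points (2968) are higher at an adjusted p under 0.05. The rises beyond 2, such as TTC29 and FOXJ1, sit at low levels, while NECTIN1 and GRN are deep falls at higher levels.

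The deepest fall among genes with at least 5 CPM was that of NECTIN1 (chr11:119623408-119729084), a cell adhesion molecule of the nectin family. Its level was 31.9, 38.2, 36.6, 38.3 and 37.1 CPM in control replicates 1 to 5 and 7.41, 6.87, 8.64 and 7.73 CPM in miR-34a-RS replicates 1, 2, 3 and 5. Every treated library was far below every control library, with 21.0% of the control level left (log2 change -2.25, SE 0.08, edgeR adjusted p = 4.66e-17). Its 3′UTR held 1 8mer and 5 7mer-m8 matches. In bulk RNA, fewer cells of a type and less RNA per cell cannot be told apart, here or in the results that follow.

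PPP1R11 (chr6:30066709-30070333), an inhibitor of protein phosphatase 1, stood at 39.9, 39.1, 41.6, 41.7 and 40.6 CPM in the control libraries and at 11.2, 11.6, 11.1 and 10.9 CPM in the treated ones. The groups were tight and wide apart (log2 change -1.86, SE 0.05, edgeR adjusted p = 4.11e-18). SNX12 (chrX:71056332-71073426), a sorting nexin of the endosome, fell by 1.83 (SE 0.05), from 86.1 ± 2.32 CPM (SD, n = 5) to 24.3 ± 0.958 CPM (n = 4). CDK6 (chr7:92604921-92836594), the G1 kinase that phosphorylates RB, was at 106, 109, 103, 107 and 93.4 CPM in the control and at 38.3, 32.6, 29.1 and 30.3 CPM with miR-34a-RS. Its highest treated library, replicate 1, still lay below the lowest control library, replicate 5 (log2 change -1.67, SE 0.07).

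MYB (chr6:135181315-135219173), a transcription factor of proliferating progenitors, fell from 7.79 ± 0.684 CPM to 2.31 ± 0.407 CPM (log2 change -1.76, SE 0.11). RTL8B, a gene derived from a retrotransposon, fell by 1.72 and E2F5, a member of the repressor E2F group, by 1.67. The other genes among the 12 deepest falls were SLC35G2, a solute carrier (-1.76), HAND1, a basic helix-loop-helix factor (-1.68), GRN (-1.66), SYT1, a calcium sensor of exocytosis (-1.58), and SMPD1, acid sphingomyelinase (-1.56). Of the 12, 9 held a 7mer-m8 or 8mer match, SLC35G2 a 7mer-A1, and HAND1 and GRN no 6mer. SLC35G2 overlaps NCK1-DT and E2F5 overlaps RBIS on the opposite strand, so reads could not be assigned between them.

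Among genes at 100 CPM or more, the deepest falls were GRN, NUP210, CDK4, TMEM109, MAGT1 and TMEM184B. NUP210 (chr3:13316235-13420309), a membrane protein of the nuclear pore, was at 394, 462, 415, 444 and 428 CPM in the control and 148, 144, 154 and 159 CPM in miR-34a-RS. The treated libraries lay within a narrow band at 35.2% of the control mean (log2 change -1.5, SE 0.05). CDK4, the partner kinase of CDK6, fell from 169.8 ± 5.45 CPM to 63.2 ± 3.68 CPM (log2 change -1.43), though it overlaps TSPAN31 on the opposite strand. TMEM109, a protein of the nuclear and endoplasmic reticulum membranes, fell by 1.34, MAGT1, a magnesium transporter and oligosaccharyltransferase subunit, by 1.32, and TMEM184B by 1.29.

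Some of the deepest falls had no 6mer in the 3′UTR searched. GRN (chr17:44345086-44353102), which encodes the lysosomal protein progranulin, was at 181, 212, 216, 207 and 232 CPM in the control and at 60.2, 68.3, 70.2 and 67.2 CPM in miR-34a-RS. The groups did not overlap, and replicate 1 was the lowest library in each. HAND1 (log2 change -1.68), CDK4, HMGN4, a nucleosome-binding protein (-1.42), and LRRC8D, a volume-regulated anion channel subunit (-1.29), completed the 5 deepest falls of this kind. Sites in coding sequence or in other transcripts were not part of that choice. In the coding sequence of the transcript searched, LRRC8D held a 7mer-m8, and GRN, HAND1, CDK4 and HMGN4 held no 8mer or 7mer-m8.

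**Figure D2:**
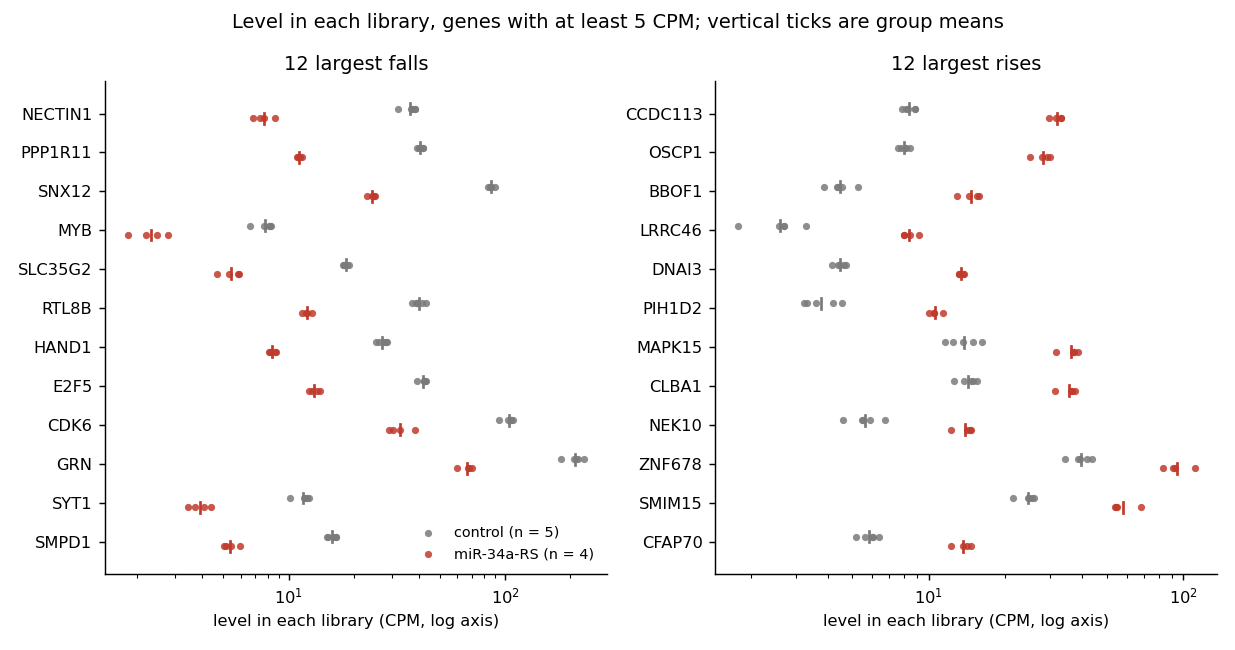
Level in each library, in CPM on a log axis, of the 12 deepest falls (left) and the 12 largest rises (right) among genes with a mean of at least 5 CPM. Grey points are the 5 control libraries, red points the 4 miR-34a-RS libraries and vertical ticks the group means. The groups do not overlap for any of the 24 genes, as the rule for choosing them required, and NECTIN1 falls from 36.4 to 7.66 CPM.

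The share of genes that fell followed the class of the best seed match. Of genes with an 8mer, 50.1% were lower, against 36.8% with a 7mer-m8, 35.0% with a 7mer-A1, 28.5% with a 6mer and 14% with no 6mer. Over all 13611 tested genes with a 3′UTR, 21.8% were lower. Genes that rose ran the other way, from 9.76% of those with an 8mer to 23.1% of those with no 6mer.

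**Figure D3:**
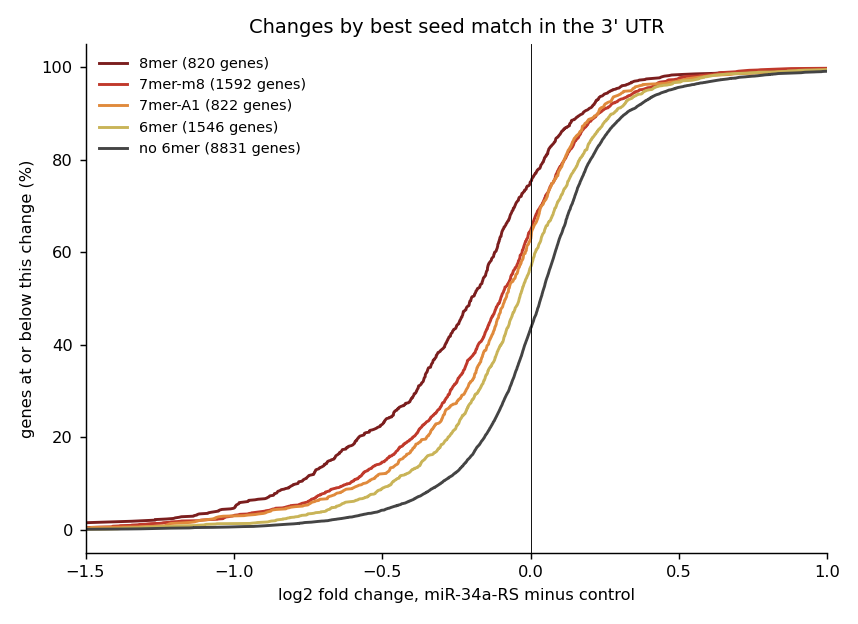
Cumulative share of genes at or below each log2 fold change, miR-34a-RS minus control, by the best seed match in the longest 3′UTR. The curve of the 820 genes with an 8mer lies farthest to the left and that of the 8831 genes with no 6mer farthest to the right, with 7mer-m8, 7mer-A1 and 6mer in between.

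For each library, the median level of the genes with a site was set against that of genes with no 6mer, on the log2 CPM scale centred per gene. For genes with an 8mer or 7mer-m8 this shift was 0.055, 0.104, 0.064, 0.086 and 0.094 in the control libraries and -0.110, -0.103, -0.088 and -0.085 in the miR-34a-RS libraries. The groups did not overlap. Each gene was centred on the mean of these 9 libraries, so the difference between the groups has meaning and the sign of a single value does not. The difference was -0.18 (95% confidence interval -0.21 to -0.14, 2412 against 8831 genes), and a permutation of the library labels (exact, two-sided) gave p = 0.00794, or 0.0109 after adjustment over 22 such relations. That is the smallest p that 4 libraries against 5 allow. By class, the difference was -0.25 for 8mers, -0.14 for 7mer-m8, -0.12 for 7mer-A1 and -0.078 for 6mers, each with the same p.

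Number and place of the sites also went with the size of the shift. Genes with 1 match of 8mer or 7mer-m8 type were shifted by -0.16, genes with 2 by -0.28 and genes with 3 or more by -0.25, the last over 105 genes. The 5 genes with the most matches, all of which fell, were NECTIN1, HCN3, a pacemaker channel with 5 8mers (log2 change -0.62), SDK2, an adhesion protein of synapses (-0.58), NAT8L, the enzyme that makes N-acetylaspartate (-0.39), and PEAK1, a cytoskeletal pseudokinase (-0.32). Single matches within 300 bases of an end of the 3′UTR gave -0.18 and those over 1000 bases from both ends -0.11. In 3 classes of A and U content around a single match, of 664, 701 and 595 genes from lowest to highest, the shifts were -0.15, -0.14 and -0.18. In each of these cases the difference between classes was itself not tested.

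Coding-sequence matches were examined in genes with no 6mer in the 3′UTR, against comparison genes of their own. Genes with an 8mer in the coding sequence and no 6mer in the 3′UTR were shifted by -0.12 (552 genes, exact permutation p = 0.0159, adjusted 0.0194). A coding 7mer-m8 gave -0.091 (exact permutation p = 0.0317, adjusted 0.0349), but here the groups overlapped. Control replicate 1 was at -0.025, below miR-34a-RS replicates 3 (-0.0155) and 5 (-0.018). For 145 genes with a match only in the 5′ untranslated region, the shift was -0.031 and did not pass (exact permutation p = 0.0635). The 712 genes with a 7mer-m8 match to the seed of miR-34a-3p were shifted by -0.00089 (95% confidence interval -0.039 to 0.054, exact permutation p = 0.984). The natural miR-34a-3p stood in for the passenger strand, the other strand of the duplex, whose own sequence was not searched.

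The supplementary stretch, where the abasic residues lie, was examined among genes that had an 8mer or 7mer-m8. The 223 genes with AGCT upstream of a match were shifted by a further -0.040 from the 2189 without it (95% confidence interval -0.050 to -0.032, exact permutation p = 0.00794, adjusted 0.0109). The median log2 fold changes of the 2 sets lay closer together, at -0.151 with AGCT and -0.131 without. The number of matches, which went with the size of the shift, was not held equal between these sets. Among genes whose best match was an 8mer, those with AGCT upstream of the 8mer itself differed from the rest by +0.0064, in the opposite direction. The rest could hold AGCT upstream of a 7mer-m8. Against miR-34a-WT, the shift of the 223 genes differed by +0.0098 (95% confidence interval -0.0059 to 0.028, exact permutation p = 0.222). Paired by replicate number, this difference was +0.011 (exact sign-flip test over the 4 pairs, p = 0.125). With AGCT 3 to 9 bases away (110 genes), the shift against control was -0.047, and miR-34a-RS was above miR-34a-WT by 0.035 (0.017 to 0.051, exact permutation p = 0.0159, adjusted 0.349). Paired by replicate number, this difference was 0.034 (exact sign-flip test, p = 0.125, the smallest that 4 pairs allow). The deepest falls with such a site were PPP1R11, NUP210, ELMOD1, an engulfment and motility domain protein (log2 change -1.41), TMED8 (-1.20), TBC1D13, a Rab GTPase-activating protein (-1.03), and TGIF2, a corepressor of TGF-beta signalling (-0.98).

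**Figure D4:**
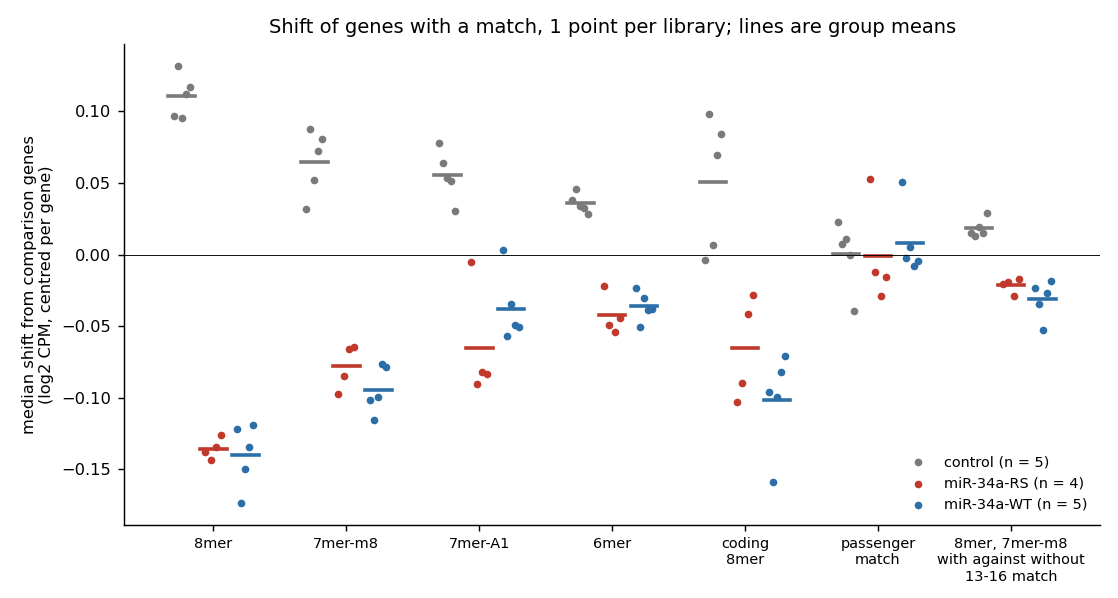
Median shift of each class of genes from its comparison genes in each library, in log2 CPM centred per gene, for control (grey), miR-34a-RS (red) and miR-34a-WT (blue). Each point is a library and each bar a group mean. The 4 seed-match classes separate control from both miR-34a groups, the passenger match does not, and the miR-34a-RS and miR-34a-WT points overlap in the seed-match classes.

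Matches were more frequent the deeper the fall. An 8mer or 7mer-m8 was present in 65.5% of the 29 genes with a 3′UTR that fell by 1.5 or more, 43.5% of those that fell by 1 to 1.5, 42.5% at 0.5 to 1, 33.5% at 0.25 to 0.5 and 23.6% below 0.25. The share over all tested genes with a 3′UTR was 17.7%. Of the 103 genes that rose by 1 or more, 8.74% had one.

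The largest rises were in genes of the motile cilium, the beating organelle of airway and ependymal cells. Of 92 tested genes of this list, 67 were higher and 2 lower (MYB and MCIDAS), beside 16.2% higher and 18.4% lower over all tested genes. The median log2 change of the list was 0.70, against -0.014 over all tested genes. The list's 9 genes with an 8mer or 7mer-m8 included 2 that fell. Summed over the list, the level was 856.6 to 879.4 CPM in the control and 1214 to 1257 CPM in miR-34a-RS. Of the 46 genes with a rise of 1.5 or more, 21 were on the list. Several of these transcripts were below 1 CPM in the control, so their values rest on few reads.

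FOXJ1, the master regulator of motile ciliogenesis, was at 0.0698, 0.115, 0.0888, 0.196 and 0 CPM in the control and 0.423, 0.624, 0.960 and 0.554 CPM in miR-34a-RS. All treated libraries lay above all control libraries (log2 change 2.65, SE 0.38, edgeR adjusted p = 4.67e-06), though FOXJ1 overlaps RNF157-AS1 on the opposite strand. MCIDAS, which drives centriole amplification in multiciliated cells, went the other way, from 4.73 ± 0.488 CPM to 2.79 ± 0.477 CPM (log2 change -0.75), and its 3′UTR held a 7mer-m8. RFX2 and RFX3, winged-helix factors that bind cilium promoters, stood at log2 changes of -0.01 and 0.13 and did not pass. CCNO, an atypical cyclin of centriole amplification, was at 0.02 and did not pass either.

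Outer and inner arm dyneins, the motors of ciliary beating, rose in most cases, beside 16.2% of all tested genes. All 5 intermediate and light chains tested were higher: DNAI1 (log2 change 1.35), DNAI3 (1.57), DNAI4 (1.5), DNAL1 (1.03) and DNALI1 (1.03). Of 7 heavy chains, 5 were higher, led by DNAH7, an inner arm chain (chr2:195737703-196068812). It stood at 0.907, 0.663, 1.07, 0.912 and 1.08 CPM in the control and at 4.59, 4.37, 3.92 and 4.72 CPM with miR-34a-RS, every treated library well above every control library. Its log2 change was 2.26 (SE 0.14), against 0.78 for DNAH5 (a call lost without miR-34a-RS replicate 1), 0.54 for DNAH11, 0.37 for DNAH1 and 0.37 for DNAH6. DNAH2 (0.12) and DNAH10 (0.09) did not pass. DNALI1 overlaps GNL2 and DNAH11 overlaps CDCA7L on the opposite strand.

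Dynein assembly factors, which fold the motors in the cytoplasm before transport, were higher for 5 of 8 tested genes, beside 16.2% of all tested genes. DNAAF1 rose by 2.16, from 1.68 ± 0.290 CPM to 7.46 ± 0.471 CPM, DNAAF4 by 1.29 and DNAAF3 by 0.79. ZMYND10, a co-chaperone of the same step, was at 0.03 and did not pass. DNAAF1 overlaps TAF1C and DNAAF4 overlaps PIERCE2 on the opposite strand.

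Radial spoke and central pair genes, which set the pattern of the beat, were higher for 8 of 9 tested genes, beside 16.2% of all tested genes. SPEF1 (chr20:3777504-3781448), a microtubule-bundling protein of the central pair, was at 0.733, 1.04, 1.27, 1.01 and 1.48 CPM in the control and at 5.80, 6.31, 6.55 and 5.92 CPM in miR-34a-RS. Every treated library was several times the highest control library (log2 change 2.48, SE 0.12, edgeR adjusted p = 5.19e-14). ROPN1L, a spoke protein, rose by 2.17, RSPH1, a spoke head protein, by 2.15 and SPAG17, a central pair protein, by 1.11. RSPH1 overlaps SLC37A1 and SPAG17 overlaps WDR3 on the opposite strand. RSPH4A, a spoke head protein, rose by 0.68 and RSPH3, a spoke stalk protein that overlaps TAGAP-AS1, by 0.70. CCDC40, a molecular ruler of the axoneme, rose by 0.64. Among CFAP genes, a group named for cilia- and flagella-associated proteins, 14 of 23 on the list were higher, with CFAP206 at 1.96 and CFAP53 at 1.20. None of these 23 was lower, but over all 38 tested protein-coding genes with a CFAP symbol, 23 were higher and 3 lower.

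Outside the low range, the clearest rise was that of CCDC113 (chr16:58231157-58283836), a coiled-coil protein of ciliary satellites and axonemes. It was at 8.13, 8.79, 8.26, 8.80 and 7.86 CPM in the control and 31.5, 32.9, 29.7 and 33.2 CPM in miR-34a-RS. Each treated library was more than 3 times any control library (log2 change 1.92, SE 0.06, edgeR adjusted p = 4.21e-18). OSCP1 (chr1:36415827-36450451), an organic solute carrier partner, rose by 1.81 (SE 0.06), from 7.98 ± 0.328 CPM to 28 ± 2.12 CPM. The other genes among the 12 largest rises were BBOF1, a basal body orientation factor (1.70), LRRC46 (1.68), DNAI3, PIH1D2 (1.47), MAPK15, an atypical kinase that acts in cilium formation (1.40), CLBA1 (1.31), NEK10, a kinase of ciliated airway cells (1.29), ZNF678 (1.25), SMIM15 (1.24) and CFAP70 (1.22). Opposite-strand genes overlap BBOF1 (ALDH6A1 and ENTPD5), LRRC46 (SCRN2), PIH1D2 (DLAT and NKAPD1), CLBA1 (CDCA4) and CFAP70.

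Genes past a rise of 2, whatever their level, numbered 19, and 4 genes fell by as much. TTC29, a ciliary tetratricopeptide protein, had the largest value at 2.95 (SE 0.40), from 0.0567 to 0.490 CPM. TTLL9, of the tubulin tyrosine ligase-like family, rose by 2.05, LRGUK by 2.0 and DRC7, a subunit of the nexin-dynein regulatory complex, by 2.02. NEK2-DT, transcribed away from the NEK2 promoter, rose by 2.59. The 4 falls were NECTIN1, ITIH3 (-2.39), JAKMIP1 (-2.36) and LINC01619 (-2.03), the last 3 with a control mean of 1.5 CPM or less. ITIH3, JAKMIP1, LINC01619, TTLL9, LRGUK, DRC7 and NEK2-DT were named after their values were seen.

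Genes of intraflagellar transport, the BBSome and the centriole cap, which build and load primary and motile cilia alike, rose by smaller steps. Of 48 tested, 36 were higher (75.0%, beside 16.2% of all tested genes), and the median was 0.36. KIF17, a kinesin of the ciliary tip, was lower (log2 change -0.40). KIF3A (chr5:132692628-132737638), a motor subunit of anterograde transport, was at 64.0, 57.6, 60.4, 54.5 and 57.7 CPM in the control and at 132, 112, 112 and 109 CPM in miR-34a-RS. Its treated libraries did not overlap the control ones, and replicate 1 was highest in both groups (log2 change 0.98, SE 0.06). IFT88, a core transport subunit, rose by 1.02, IFT22 by 1.0, DYNC2LI1, a light intermediate chain of the retrograde motor, by 0.99, and CLUAP1 by 0.89. CCP110, the centriole cap protein that blocks cilium growth and is a reported miR-34 target, was higher: 112, 113, 109, 106 and 108 CPM in the control and 145, 127, 125.8 and 127 CPM with miR-34a-RS. Its log2 change was 0.25 (SE 0.05, edgeR adjusted p = 0.00019), no 6mer was found in its longest 3′UTR, and replicate 1 stood above the other treated libraries. CEP97, its partner, was at 0.13 and did not pass, but it did under 8 alternatives, among them without control replicate 2 or miR-34a-RS replicate 3 (0.17 and 0.16), by DESeq2 and with other scalings.

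Promoters of the genes that rose were searched on both strands for GTNNCC followed by any 3 bases and GNAAC, a pattern like the X-box bound by RFX factors, over 250 bases before to 50 bases after each RefSeq start (GRCh38.p14). The search was added after the rises of cilium genes had been seen. Windows were found for 85 of 105 protein-coding genes that rose by 1 or more, and 27 of them (31.8%) held the pattern. It was present in 6.34% of genes with a smaller rise, 2.88% of those that did not pass and 2.50% of those that fell. Over all tested protein-coding genes with a window the share was 3.7%, over all RefSeq genes 2.76% and over single RefSeq windows of the same length 2.28%. The motile cilium list had 20.3% (15 of 74 genes), with 19.2% of the members that rose (10 of 52) and 25% of those that did not pass (5 of 20). A match describes the letters in a window and does not show that a factor binds. These examples come from genes with large rises, with the pattern in capitals, at chr16:58249901-58249930 (plus), chr4:146945857-146945886 (minus), chr11:112074007-112074036 (minus), chr7:134127333-134127362 (plus) and chr20:31879798-31879827 (plus).
CCDC113: cgcgtccgGTCGCCCGGGCAACgcgccacc
TTC29: gcctctctGTTTCCGTGGAGACgctctcgg
PIH1D2: ccaggctgGTTACCCTGGTAACaggcgtcg
LRGUK: tggggtcaGTCTCCTAGGCAACcccgctaa
TTLL9: gcctgtctGTCGCCTTGGCAACgggacgca

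At 100 CPM or more, rises were smaller and in other genes. DESI2, a deubiquitinating and desumoylating peptidase, rose the most of these, from 115 ± 4.81 CPM to 202 ± 8.57 CPM (log2 change 0.81). MTF2, a Polycomb-like protein, rose by 0.71, ST13, an HSP70-interacting cochaperone, by 0.68, AFF4, a scaffold of the super elongation complex, by 0.64, SSU72, a phosphatase of RNA polymerase II, by 0.62 and BBX by 0.62. SSU72 was among genes that rose while holding an 8mer, together with LRRC46, SMIM15, CEP19, a ciliary centrosome protein (0.77), and STOML1 (0.74). The 8mers of LRRC46 and SMIM15 are at chr17:47837430-47837457 (plus) and chr5:61159250-61159277 (minus) and are shown because these genes rose.
LRRC46, 8mer: atggaagaggcatgccatctCACTGCCA
SMIM15, 8mer: acaatttttgtactcacaaaCACTGCCA

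**Figure D5:**
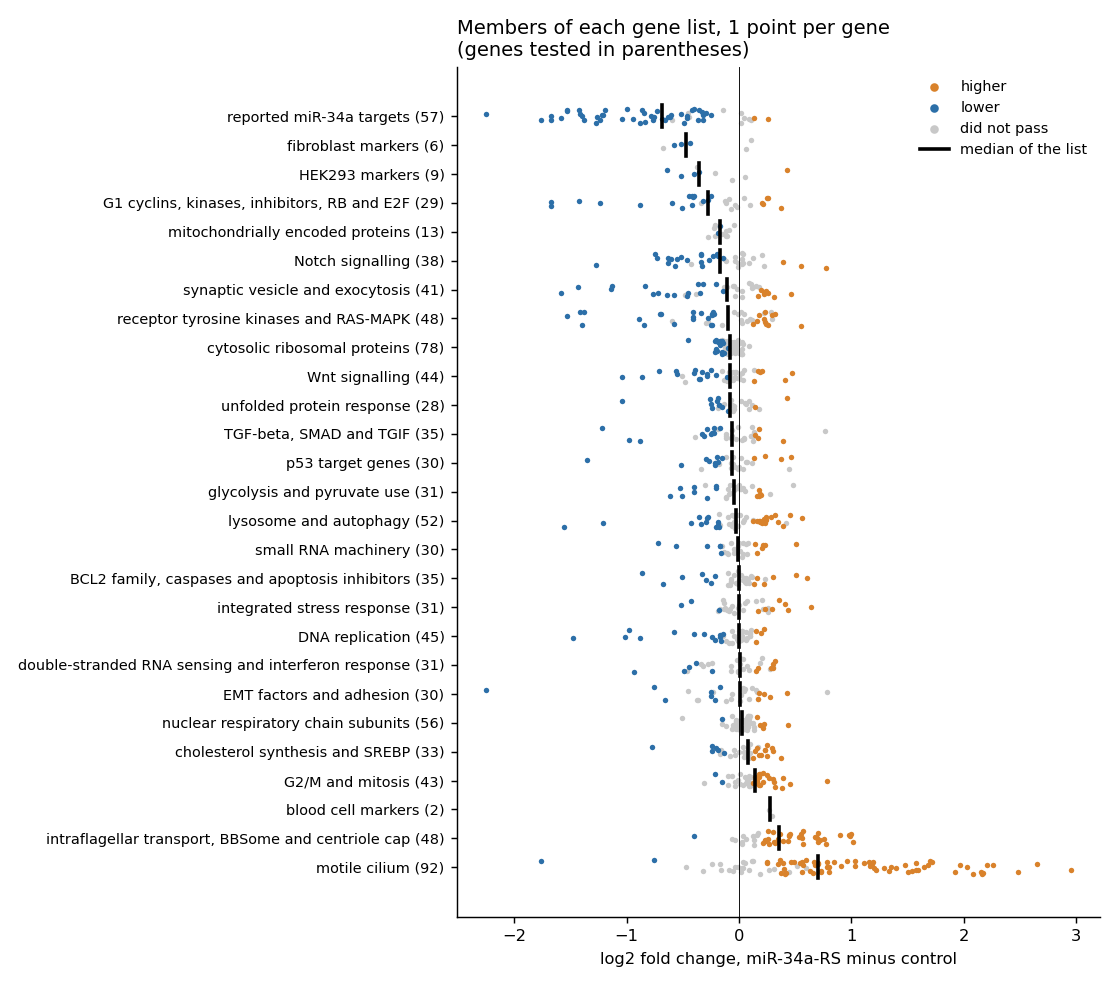
Log2 fold change, miR-34a-RS minus control, of each tested member of the 27 gene lists, 1 point per gene, with the list median as a black bar. Reported miR-34a targets lie mostly to the left (median -0.68) and motile cilium genes mostly to the right (median 0.70), while most other lists centre near 0.

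Reported targets of miR-34a, a list drawn from published work, were lower for 46 of 57 tested genes (80.7%, beside 18.4% of all tested genes). CTNNB1 and CCP110 were higher (3.51%, beside 16.2%), and the median was -0.68. Without miR-34a-RS replicate 1, 4 were higher. Of the 41 with an 8mer or 7mer-m8, 35 fell. SIRT1, the NAD-dependent deacetylase, was at 75.0, 74.0, 80.4, 72.0 and 69.1 CPM in the control and 48.6, 46.5, 45.6 and 43.9 CPM with miR-34a-RS, with a clear gap between the groups (log2 change -0.68, SE 0.05). HDAC1, a class I histone deacetylase, fell by 0.94 and MYC by 0.32. MIR34AHG, the host transcript of miR-34a itself, fell by 0.27 (SE 0.08, edgeR adjusted p = 0.00874), a call that was lost when miR-34a-RS replicate 1 was left out. CTNNB1, beta-catenin, rose by 0.14.

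Of 29 G1 cyclins, kinases, inhibitors, RB and E2F genes, 15 were lower (51.7%, beside 18.4% of all tested genes) and 5 higher (17.2%, beside 16.2%), with a median of -0.28. After CDK6, E2F5 and CDK4, the largest falls were CCND1, cyclin D1 (-1.23, overlapping LTO1), CDC25A, the phosphatase that activates CDK2 (-0.88), and CCNE1, cyclin E1 (-0.60). The inhibitors CDKN2C (0.25) and CDKN2D (0.37) rose, as did E2F8 (0.25). CCND3 (-0.51) and CCND2 (-0.42), the other D cyclins, and E2F2 (-0.44) and E2F3 (-0.42), activator E2Fs, fell as well. E2F1 (-0.02) and RB1 (-0.09) did not pass, although RB1 did without miR-34a-RS replicate 1 (-0.15). CDKN1A, the p21 gene, had overlapping groups (-0.34, SE 0.15) and did not pass, although it did without miR-34a-RS replicate 2 (-0.45).

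DNA replication genes were split. Of 45 tested, 13 were lower (28.9%, beside 18.4% of all tested genes) and 4 higher (8.89%, beside 16.2%), and the median was 0.0001. TK1, thymidine kinase, was at 114, 138, 129, 138 and 152 CPM in the control and 40.5, 52.3, 47.7 and 51.8 CPM in miR-34a-RS, with replicate 1 lowest in both (log2 change -1.48). GINS3, a subunit of the replicative helicase, fell by 1.01, MCM3, another helicase subunit, by 0.98, GMNN, the licensing inhibitor geminin, by 0.88, and CDT1, which geminin binds, by 0.40, while PCNA was at -0.05 and did not pass. G2/M and mitosis genes went the other way, with 23 of 43 higher (53.5%) and a median of 0.14. HMMR (-0.22) and ESPL1 (-0.15) were lower (4.65%). The ESPL1 call was lost without any 1 of control replicates 2, 4 and 5 and miR-34a-RS replicates 1 and 2. NEK2, a centrosomal kinase, had the largest rise there (0.78), from 67.7 ± 1.30 CPM to 116 ± 4.03 CPM. CCNB1, cyclin B1, rose by 0.30, CKS2, a subunit of cyclin-dependent kinases, by 0.46 and CENPA, the centromeric histone, by 0.39, and PLK1 (-0.04) did not pass. Among 30 p53 target genes, 9 were lower, led by BTG2, an antiproliferative factor (-1.35), and 4 were higher, among them SPATA18 (0.46).

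Notch genes were lower for 19 of 38 tested members and higher for RBPJ, PSENEN and MFNG, with a median of -0.17. The receptor NOTCH2 was at 290.1, 314, 285, 303 and 278 CPM in the control and 131, 115, 120.1 and 120.1 CPM in miR-34a-RS, less than the lowest control library in every case (log2 change -1.27). NOTCH1 fell by 0.63 and NOTCH3 by 0.56, the ligands DLL1 by 0.73 and JAG1 by 0.47, and the inhibitor NUMBL by 0.75. Among the genes that rose, RBPJ is the DNA-binding partner of the pathway (0.39), PSENEN a gamma-secretase subunit (0.55, overlapping U2AF1L4) and MFNG a glycosyltransferase (0.77), a call lost without miR-34a-RS replicate 3.

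Beside the shares over all tested genes (18.4% lower and 16.2% higher), receptor tyrosine kinase and RAS-MAPK genes were lower for 20 of 48 (41.7%) and higher for 11 (22.9%), with a median of -0.10. The receptors KIT (-1.53) and MET (-1.38) fell the most of those named, followed by MAP2K1, the kinase MEK1 (-0.85, overlapping SNAPC5), and FGFR1 (-0.69), while GRB2, an adaptor, rose by 0.55. Wnt genes were lower for 15 of 44 (34.1%) and higher for 6 (13.6%), and LEF1, a transcription factor of the pathway (-1.04), and LGR4, an R-spondin receptor (-0.86), fell, as did ZNRF3, a ligase that removes Frizzled receptors (-0.71), and AXIN2 (-0.39), a feedback inhibitor, whereas FZD6, a receptor, rose by 0.47. TGF-beta genes were lower for 11 of 35 (31.4%) and higher for 4 (11.4%, and 2 genes without control replicate 5), with falls of INHBB, an activin subunit (-1.22), TGIF2 and SKI, a corepressor of SMADs (-0.88). Synaptic vesicle genes were lower for 16 of 41 (39.0%) and higher for 8 (19.5%), and after SYT1 the falls included SYP, synaptophysin (-1.14), and VAMP2, a vesicle SNARE (-0.84).

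Lists of RNA sensing, small RNA machinery and stress had medians between -0.08 and 0.01, and several of their shares were near those over all tested genes (18.4% lower and 16.2% higher). Double-stranded RNA sensing and interferon genes had 5 lower (16.1%) and 6 higher (19.4%) of 31 (median 0.01), with 3 lower without control replicate 4 or miR-34a-RS replicate 1. IFI35 fell by 0.93. Small RNA machinery had 6 lower and 6 higher of 30, near those shares in both directions (median -0.0054, which turned to +0.0078 with relative log expression scaling), with CNOT6, a deadenylase, at -0.72 and XRN1, the 5′ exonuclease, at 0.51, while AGO2 (0.08) did not pass. The integrated stress response had 3 lower (9.68%) and 7 higher (22.6%) of 31, with 5 lower without control replicate 1 or miR-34a-RS replicate 2. Of 28 unfolded protein response genes, 10 were lower (35.7%) and 2 higher (7.14%; 6 lower without control replicate 2 or miR-34a-RS replicate 5, and 1 higher without control replicate 4 or 5 or miR-34a-RS replicate 2), led by XBP1, the factor spliced by IRE1, which fell by 1.04 and held 7mer-m8 matches. HSPA5, the chaperone BiP, was at -0.09 and did not pass.

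Metabolic and organelle lists had medians between -0.04 and 0.08. Cholesterol synthesis had 6 lower (18.2%, beside 18.4% of all tested genes) and 12 higher (36.4%, beside 16.2%) of 33, with a median of 0.08 and DHCR7, the last enzyme of the pathway, at -0.78. Glycolysis had 8 lower (25.8%) and 5 higher (16.1%) of 31 (3 higher without control replicate 3 or miR-34a-RS replicate 2), and LDHA, lactate dehydrogenase A, fell from 1204 ± 77.9 CPM to 785 ± 80.6 CPM (log2 change -0.62), with an 8mer in its 3′UTR. Lysosome and autophagy genes had 12 lower (23.1%) and 17 higher (32.7%) of 52, and besides SMPD1 the autophagy scaffold ATG9A fell by 1.21. BCL2 family and caspase genes had 7 lower and 6 higher (17.1%) of 35, with CASP2 at -0.87 and XIAP, a caspase inhibitor, at 0.51. Genes of epithelial-mesenchymal transition and adhesion had 7 lower (23.3%), NECTIN1 among them, and 5 higher (16.7%) of 30 (3 higher without control replicate 5 or miR-34a-RS replicate 2).

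Nuclear respiratory chain genes were lower for NDUFA10 alone (-0.15, a call lost without miR-34a-RS replicate 1) and higher for 5 of 56 (8.93%, beside 16.2% of all tested genes). Of 13 mitochondrially encoded genes, MT-ND3 and MT-ND6 were lower and none higher by edgeR (0 at an unadjusted p under 0.05 and 0 by DESeq2), with a median of -0.17, and miR-34a-RS replicate 2 had the lowest mitochondrial share, as given above. The MT-ND3 call was lost without control replicate 3 or miR-34a-RS replicate 2. The MT-ND6 call was lost without any 1 of control replicates 1, 3 and 4 and miR-34a-RS replicates 1 and 2, and by DESeq2. Without control replicate 5 the list had 4 lower genes, and without miR-34a-RS replicate 3 it had 5. Cytosolic ribosomal proteins were lower for 15 of 78 (19.2%, near the 18.4% over all tested genes) and higher for none by edgeR (0 at an unadjusted p under 0.05 and 0 by DESeq2), with a median of -0.084. The 15 became 6 without control replicate 2, 8 without control replicate 4 and 5 without miR-34a-RS replicate 1. RPS12 fell the most, at 596, 592, 589, 609 and 554 CPM in the control and 428, 425, 430.3 and 434 CPM in miR-34a-RS, with no overlap (log2 change -0.45).

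miR-34a-RS was then compared with miR-34a-WT directly, since both comparisons with the control share its 5 libraries. Of 18321 genes, 286 differed (1.56%), with 188 higher (1.03%) and 98 lower (0.535%) in miR-34a-RS. With replicate number as a block over all 14 libraries, 1254 differed, of which 285 were called in both fits. By the change without the block, 625 of the 1254 were higher and 629 lower. The block also covered the control libraries, whose numbers did not pair with those of miR-34a-RS. Among the 1749 genes that miR-34a-RS had changed by 0.5 or more against control, 79 differed from miR-34a-WT, with 54 closer to the control level and 25 farther from it. With the block these counts were 221, 137 and 84.

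RTL8B differed most among the deep falls. Its control libraries were at 37.3, 38.7, 43.0, 39.1 and 41.5 CPM, its miR-34a-RS libraries at 12.1, 12, 11.5 and 12.9 CPM, and miR-34a-WT averaged 7.94 ± 0.540 CPM (n = 5). miR-34a-RS thus left a level 0.61 above miR-34a-WT on the log2 scale (edgeR adjusted p = 3.5e-06). TBC1D13, one of the genes with AGCT beside its seed match, was at 85.1 CPM in the control, 41.7 CPM in miR-34a-RS and 27.7 CPM in miR-34a-WT (difference 0.59, edgeR adjusted p = 1.22e-06). TPD52, a vesicle trafficking protein, and SIRT1 were also less reduced, by 0.52 and 0.27. SNX12 (-0.25), HAND1 (-0.30) and CCND1 (-0.31) lay below their miR-34a-WT levels. So did SKI (-0.24, edgeR adjusted p = 0.0408), which, like TBC1D13, has AGCT upstream of a seed match. RTL8B has none. Of the 223 genes with an 8mer or 7mer-m8 and AGCT, 14 were higher and 2 lower in miR-34a-RS by the same test. Of the 2189 without AGCT, 56 were higher and 17 lower. These counts were not compared by a test. NECTIN1 (7.66 against 6.68 CPM), PPP1R11, CDK6 and NUP210 did not pass for a difference between the duplexes. Across the 2412 genes with an 8mer or 7mer-m8, the shift in miR-34a-RS exceeded that in miR-34a-WT by 0.011 (95% confidence interval -0.015 to 0.036, exact permutation p = 0.333, adjusted 0.483). Paired by replicate number, the excess was 0.015 (exact sign-flip test over 4 pairs, p = 0.25).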

How the data were processed

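RNA of transfected HEK293T cells was purified with the GeneJET kit, cleared of genomic DNA and made into TruSeq RNA v2 libraries, per the labels' protocols. The authors deposited a table of read counts per gene for 14 libraries. Reads had been aligned with STAR 2.7.11a and counted with featureCounts (Subread 2.0.3) on GRCh38, and edgeR 3.42.4 is listed, per the submitters' processing notes. The annotation release and the strand setting are not given in the sources used here, and the kit does not mark strand. Genes with an opposite-strand neighbour are therefore named as uncertain. Ensembl identifiers were matched to GENCODE 29 for symbols, positions and 3′UTRs of at least 20 bases, and 99.69 to 99.72% of counts lay in matched genes.

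The deposited counts went into edgeR 4.0.16 (R 4.3.3; TMM factors, filterByExpr by group, robust quasi-likelihood fit of 3 group means over 14 libraries, so that all share 1 estimate of the spread, with a common biological coefficient of variation of 0.0615). P-values were adjusted by Benjamini-Hochberg over 18321 genes, with a threshold of 0.05. Shifts used log2 CPM with a prior count of 2, and two-sided exact permutation over libraries, with 95% confidence intervals by inversion of that test. On simulated counts for miR-34a-RS against control over 18321 genes, with 200 changed, 62, 70, 90 and 100% of changes of 1.25, 1.5, 2 and 4 fold were recovered, and 9 unchanged genes were called. Replicate pairs within groups differed by more than counting noise (chi-square per degree of freedom 2.73 to 14.24 over 26 pairs), so no library was a copy of another.

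Replicate numbers come from the titles. Between the duplexes with and without abasic residues, libraries of 1 number deviated together in all 4 pairs (correlation 0.396 to 0.779), so these numbers pair the samples. The permutation of shifts between the duplexes did not use this pairing. Two-sided sign-flip tests over the 4 pairs, which switch the sign of each paired difference, are therefore given beside it. Alternatives were other scalings, no filter, the miR-34a-RS and control libraries alone, a replicate block, removal of 3′UTR GC and length trends, DESeq2 1.42.0 and leaving out each library.

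The members and gene lists were chosen with earlier results of these data known, and 46 genes are on more than 1 list. Named genes were those with at least 5 CPM and no overlap between groups among the 12 largest falls and rises, and the 6 largest of each at 100 CPM or more. Added to them were the 5 largest falls without a 6mer, the 5 largest rises with an 8mer, the 5 genes with most matches, the 6 largest falls with a supplementary site, up to 4 members per list by adjusted p, MIR34AHG, SIRT1 and CCP110. Other genes were named for their role or their values after these had been seen. A few genes that these rules pick are not reported here. Promoter windows came from RefSeq (GRCh38.p14) for 81.6% of tested protein-coding genes.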

Additional observations from a re-analysis of the deposited data

Results flagged for a closer look

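Libraries far from the rest of their group, by Dixon's criterion, were found in 25 of 362 groups of values examined (6.91%), where chance gives about 1 in 20 (5%). Among miR-34a-RS libraries, replicate 1 was the distant one 7 times: SMIM15 at 68.45 CPM, CCNE1 at 39.08 CPM, RB1 at 119.2 CPM, KIF3A at 131.8 CPM, CCP110 at 144.8 CPM, FZD6 at 48.6 CPM and the shift of 7mer-A1 genes at -0.00551. Of these, CCNE1 was the lowest of its group and the others the highest. Replicate 2 was distant for MT-ND6 (518.4 CPM) and replicate 3 for MFNG (0.905 CPM) and NEK2-DT (1.179 CPM).

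In the control, replicate 1 was low for NECTIN1 (31.93 CPM), PLK1 (181.4 CPM), DHCR7 (141.3 CPM) and HDAC1 (452.6 CPM) and high for GRB2 (129.2 CPM). Replicate 5 was low for E2F5 (39.35 CPM), SYT1 (10.2 CPM) and TMED8 (88.5 CPM) and high for NAT8L (106 CPM) and KIF17 (18.15 CPM). Replicate 2 was distant for DNAH10 (1.239 CPM), INHBB (2.65 CPM) and the mitochondrial share of counts (2.748%), replicate 3 for NEK2-DT (0.2072 CPM) and replicate 4 for MCIDAS (5.572 CPM). NECTIN1, CCP110 and KIF3A kept their calls without any single library.

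The effects of the 2 duplexes differed by the edgeR test of the difference itself for 20 of the 169 genes described, without the replicate block. Over all 18321 tested genes, 286 differed (1.56%). The genes described were chosen partly for their values, so their count does not stand for all genes. Levels were higher with miR-34a-RS, on the log2 scale, for RTL8B (0.6131), TBC1D13 (0.588), TPD52 (0.5224), NOTCH3 (0.3918), XBP1 (0.312), SIRT1 (0.2686) and TMEM109 (0.2462). All 7 fell with both duplexes, so the fall was smaller with miR-34a-RS. Levels were lower with miR-34a-RS for CCND1 (-0.3098), HAND1 (-0.296), SNX12 (-0.254), SKI (-0.2405), HMMR (-0.2271), CDC25A (-0.1882) and E2F3 (-0.1738). Among genes that rose against control, OSCP1 (-0.2145), BBOF1 (-0.3059), NEK10 (-0.302), LRGUK (-0.4066) and FZD6 (-0.2146) rose less with miR-34a-RS. CEP97 differed by -0.2505 and did not pass against control with miR-34a-RS. With the block, 38 genes differed, beside 1254 of all 18321: these 20 and 18 more, 6 higher and 12 lower with miR-34a-RS. The numbers of the 2 duplexes pair, but the block also covered the control libraries, whose numbers did not pair with those of miR-34a-RS. Among the 18 were SYP (edgeR adjusted p = 0.00816 with the block and 0.0638 without), IFT88 (0.00841 and 0.104), SPEF1 (0.0135 and 0.0977), CCP110 (0.00145 and 0.095) and TMED8 (0.0263 and 0.191).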

How the results depend on the processing

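Against 6346 genes called (2968 higher, 3378 lower), the counts were 6419 (3236 and 3183) with relative log expression factors, 6483 (3381 and 3102) with upper-quartile factors, 5957 (3134 and 2823) with no filter, 6072 (2903 and 3169) for the miR-34a-RS and control libraries alone, 7091 (3958 and 3133) with GC and length trends removed over 13611 genes, and 6262 (3187 and 3075) by DESeq2. Leaving out 1 library gave 5648 to 6361 called, 2621 to 3136 higher and 2846 to 3329 lower. Single calls moved more than these totals: of the 6346, 4649 were kept whichever library was left out, and 1697 were lost at least once. A minimum change of 0.5 left 1749 (605 and 1144), by its construction. The replicate block gave 7715 (3678 and 4037). The numbers of control and miR-34a-RS libraries did not pair, with same-number correlations of 0.52, -0.057, 0.24 and 0.39, and not every library correlated best with its own number.

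The shift of genes with an 8mer or 7mer-m8 (-0.18) stayed between -0.25 and -0.12, and between -0.184 and -0.172 without single libraries. The supplementary shift was -0.041 to -0.037 without single libraries but +0.006433 for 8mers alone. The passenger shift of -0.00089 was +0.009466 with GC and length trends removed. The causes of these reversals were not tested. Of 169 genes described, 156 kept their direction and call under every alternative. Of the other 13, HSPA5, CDKN1A and CEP97 passed with the block, AGO2, PCNA, RB1 and CEP97 with GC and length trends removed, and CEP97 with both other scalings, without the filter and by DESeq2. MT-ND6 lost its call with both other scalings, without the filter and by DESeq2, ESPL1 without the filter, and NDUFA10 without the filter and with the trends removed. The rest changed only without single libraries.

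Among list counts that moved by more than 1.5 times, the lower genes without the filter numbered 8 for ribosomal proteins, 6 for the unfolded protein response, 3 for small RNA machinery, 1 each for G2/M and the mitochondrially encoded genes and 0 for the respiratory chain. With either other scaling or by DESeq2, 1 mitochondrially encoded gene was lower. With the block, 30 ribosomal protein genes were lower, 8 and 12 of the integrated stress response were lower and higher, and 6 mitochondrially encoded genes were lower. Higher genes with the block numbered 7 for DNA replication, 8 for TGF-beta, 8 for glycolysis, 9 for the respiratory chain, 4 for reported targets and 1 for fibroblast markers. With GC and length trends removed, 11 BCL2 family genes, 10 interferon, 9 respiratory chain, 7 DNA replication, 7 TGF-beta, 5 unfolded protein response, 4 reported target, 3 ribosomal protein, 1 fibroblast and 1 blood marker genes were higher, and 5 integrated stress response, 4 respiratory chain and 0 mitochondrially encoded genes were lower. With the miR-34a-RS and control libraries alone, 1 blood marker was higher. Depth limits the genes below 1 CPM, where SE reached 0.40.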

Other observations

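Genes grouped by the stem of their symbol gave further contrasts, over 68 stems with at least 20 tested protein-coding genes, where 21.7% of such genes were lower and 19.9% higher overall. The highest shares of rising genes were in CFAP (23 of 38), CEP, centrosomal proteins (18 of 37), TTC, tetratricopeptide proteins (14 of 33), GTF, general transcription factors (9 of 23), and CCDC, coiled-coil proteins (40 of 105). The highest shares of falling genes were in COL, collagens (15 of 33), ZDHHC, protein palmitoyltransferases (9 of 22), TBC, Rab GTPase-activating proteins (11 of 30), SNX, sorting nexins (10 of 28), and PDE, phosphodiesterases (7 of 20). Of the 265 SLC genes, solute carriers, 82 fell. Collagen falls included COL26A1 (log2 change -1.0), COL4A4 (-0.89), COL2A1 (-0.63) and COL4A2 (-0.60), named after their values were seen. Stems were grouped after the data had been seen, and no test was made on them.

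Among genes with no 6mer in the 3′UTR, the share that rose varied with base composition. Over 5 equal classes from the lowest to the highest 3′UTR GC content, 30.9, 28, 23.7, 18.3 and 14.8% were higher and 9.51, 12.4, 14.6, 16.9 and 16.8% were lower. By 3′UTR length, the share that rose went from 18.6% in the shortest class to 27.7% in the longest. These are descriptions of the same 9 libraries, and the part of composition and length in the shifts of site classes was not tested. With GC and length trends removed, the shift was -0.122 for genes with an 8mer or 7mer-m8. Those trends were fitted over all genes with a 3′UTR, site genes included. That value therefore cannot separate composition and length from the sites.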
